A study of Mus musculus with 4 samples.

Results

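Chemokines are small secreted proteins that bind receptors on leukocytes and guide their migration, and the genes encoding them were described here by the cell class that carried their transcripts. The set held all gene rows whose symbol follows the numbered Ccl or Cxcl pattern, together with Cx3cl1, Xcl1, Pf4 and Ppbp. These were 46 of the 31054 gene rows measured. The rule used names only and no measured value.

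The transcripts came from 4 droplet single-cell RNA-seq libraries of skin tumours from LKPR mice, whose alleles include Lgr5CreER, p53fl/fl and Rosa26-YFP+/+. Every mouse received 4 daily injections of 2.5 mg tamoxifen from postnatal day 28, which in this model deletes p53 and labels cells with YFP in the Lgr5-expressing cells of the skin and their progeny. Tumours were seen 7 to 9 weeks later. There were 2 control libraries and 2 libraries from mice given NP137, an antibody against the secreted guidance protein netrin-1, in doses of 10 mg/kg, repeated every 2 days, starting 4 weeks after tamoxifen and lasting until death. Tumours were digested with collagenase at 37 °C, all live cells were sorted, and 10000 cells were loaded per channel. Nothing states that the 2 libraries of a group were separate animals, so p-values measure only the spread between these libraries.

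The family is named after the spacing of its first cysteines, which separates CC, CXC, CX3C and XC ligands. CXC ligands such as Cxcl1, Cxcl2, Cxcl3 and Cxcl5 act on the receptor Cxcr2 and draw neutrophils, whereas Ccl2, Ccl7 and Ccl12 act on Ccr2 and draw monocytes. Other members serve resting tissue: Cxcl12 retains cells that carry Cxcr4, Ccl21a guides dendritic cells into lymphatics, and Ccl27a is made by keratinocytes of the epidermis. Several inflammatory members are transcribed within minutes to hours after NF-kB or interferon signalling, and tissue digestion can itself induce some of them.

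Promoters are shown for the neutrophil-drawing ligands Cxcl1, Cxcl2 and Cxcl3, which lie in one cluster on chromosome 5, for Cxcl10, called lower in tumour cells with NP137, and for Cxcl12, which differed between the marker gates of tumour cells. Each sequence holds the first 220 bases of the RefSeq promoter window of GRCm38.p6, which starts 250 bases before the annotated gene start, read 5′ to 3′ on the gene's strand. Capitals mark matches on either strand to the NF-kB consensus and, in Cxcl10 only, to the interferon response core GAAANNGAAA.

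Cxcl1, chr5:90890995-90891214, plus strand: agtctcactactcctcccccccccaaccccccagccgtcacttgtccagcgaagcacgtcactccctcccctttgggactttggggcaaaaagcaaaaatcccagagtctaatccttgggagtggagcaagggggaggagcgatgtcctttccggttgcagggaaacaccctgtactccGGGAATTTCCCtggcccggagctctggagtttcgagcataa

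Cxcl2, chr5:90903649-90903868, plus strand: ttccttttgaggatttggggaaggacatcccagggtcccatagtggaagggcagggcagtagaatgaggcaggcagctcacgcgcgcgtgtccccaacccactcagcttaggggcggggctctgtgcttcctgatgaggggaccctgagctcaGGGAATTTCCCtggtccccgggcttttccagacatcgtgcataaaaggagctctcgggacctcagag

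Cxcl3, chr5:90785851-90786070, plus strand: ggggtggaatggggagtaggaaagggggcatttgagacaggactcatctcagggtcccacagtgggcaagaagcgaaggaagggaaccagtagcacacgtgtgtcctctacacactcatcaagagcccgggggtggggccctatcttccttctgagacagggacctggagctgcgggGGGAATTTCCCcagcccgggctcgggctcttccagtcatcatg

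Cxcl10, chr5:92348920-92349139, minus strand: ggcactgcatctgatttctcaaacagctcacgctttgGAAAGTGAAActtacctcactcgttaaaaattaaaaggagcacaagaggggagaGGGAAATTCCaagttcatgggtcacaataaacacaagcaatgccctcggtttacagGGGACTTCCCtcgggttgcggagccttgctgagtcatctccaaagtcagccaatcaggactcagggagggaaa

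Cxcl12, chr6:117168285-117168504, plus strand: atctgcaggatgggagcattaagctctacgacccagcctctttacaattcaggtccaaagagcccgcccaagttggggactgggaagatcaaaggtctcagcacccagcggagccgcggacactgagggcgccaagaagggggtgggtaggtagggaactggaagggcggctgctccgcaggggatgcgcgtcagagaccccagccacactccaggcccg

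The NF-kB consensus began 71 bases before the start in Cxcl1, 97 bases before it in Cxcl2 and 73 bases before it in Cxcl3, where each run of capitals holds 2 overlapping matches, 1 on each strand. Cxcl10 held 2 separate matches, the first beginning 159 bases before the start, and its interferon response core began 213 bases before the start. The NF-kB consensus was present in 4.51% of 32851 promoter windows of 300 bases and in those of 7 of the 29 ligand genes found in the table (Ccl20, Ccl27a, Ccl9, Cxcl1, Cxcl2, Cxcl3 and Cxcl10). The interferon response core was present in 3.44% of all windows and in those of 3 ligand genes (Ccl19, Cxcl10 and Cxcl14). A match describes letters in this window and is not a measured binding site.

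Cells were assigned to classes by markers that include no chemokine, and each class is named below by its gate. A cell entered the class for which it expressed the largest fraction of markers, with at least 3 detected and 1.5 times the fraction of any class of another compartment. Keratinocyte- or fibroblast-gated cells with a YFP UMI (a unique molecular identifier, 1 counted transcript) and at least 3 UMIs of YFP and Cdkn2a together were called tumour cells, because the Rosa26-YFP allele marks recombined cells. After filtering, the libraries held 10482 and 5301 control cells and 14205 and 14513 NP137 cells, from total UMI counts of 69517664 to 149021188 per library. Pairs of libraries shared 24 to 86 cell barcodes. Control 1 and NP137 1 carry the same date in the names of the deposited files and control 2 and NP137 2 carry different ones, and what the date records is not given. Xist without a Y-linked transcript was found in 64.36%, 0.3%, 27.74% and 68.05% of cells of control 1, control 2, NP137 1 and NP137 2, and a Y-linked transcript without Xist in 0.02%, 51.42%, 16.66% and 0%, so sex differed within each group and NP137 1 held cells of both kinds. Median UMI counts differed between classes of one library, from 829 to 3439 in neutrophils against 9003 to 25783 in tumour cells.

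The makeup of the tumour class differed between the groups. The rule on YFP and Cdkn2a was met by 57.86% and 68.31% of all fibroblast-gated cells in the controls and by 1.79% and 0.36% in NP137 1 and NP137 2. Of all keratinocyte-gated cells 44.7% and 6.31% met it in the controls and 46.34% and 84.25% with NP137. Macrophages, which should lack the label, met it in 2.49% and 1.23% of cells in the controls and 0.43% and 0% with NP137, and pericytes in 7.61% and 1.06% of cells in the controls and 0.41% and 0.3% with NP137. The share of fibroblast-gated cells in NP137 2 was thus close to that of its pericytes. Fibroblast-gated cells formed 88.6% and 84.07% of tumour cells in the controls but 1.54% and 1.79% in the NP137 libraries. Keratinocyte markers summed to 5018 and 5967 UMIs per 1000000 UMIs of the class (CPM) in control tumour cells and to 28972 and 24788 CPM in NP137 tumour cells, with 8 of 12 markers called higher. Fibroblast markers summed to 9278 and 6811 CPM in the controls and to 291 and 1128 CPM in the NP137 libraries, with 4 of 12 called lower. Of all 13850 genes tested in this class, 175 were called higher and 259 lower. The same marker lists set the gates, so these sums restate the mix of gates and are no separate evidence of it. The difference in makeup moved with the treatment. For the 6 ligands named in the tumour-class comparison below, the values in keratinocyte-gated cells alone are also given.

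Neutrophils carried the largest fraction of their transcripts as chemokine ligands. Ligands made up 5.72% and 6.68% of all UMIs in control neutrophils and 4.04% and 7.52% in NP137 neutrophils. In macrophages the fraction was 1.96% and 1.77% in the controls and 1.70% and 1.86% in the NP137 libraries. Tumour cells spent 0.483% and 0.145% of their UMIs on ligands in the controls and 0.371% and 0.198% in the NP137 libraries, below neutrophils and macrophages of the same library in all 4 libraries. Fibroblasts lay between 0.484% and 0.837%.

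**Figure D1:**
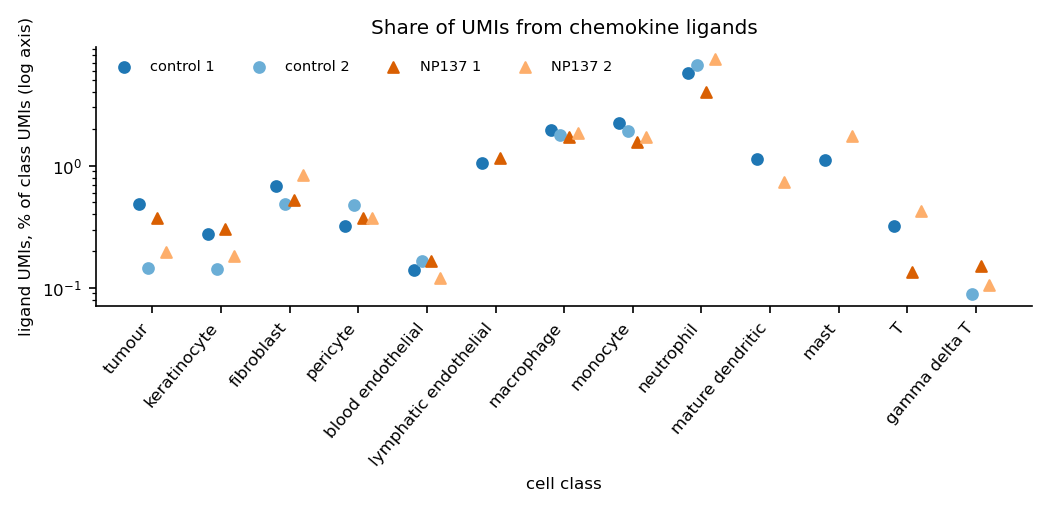
Chemokine ligand UMIs as a percentage of all UMIs of a class (vertical log axis), by cell class and library. Each point is 1 library with at least 20 cells of that class. Neutrophils lie at 4.04% to 7.52%, above macrophages at 1.70% to 1.96% and tumour cells at 0.145% to 0.483%.

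The number of different ligands per cell followed a different order. With each cell reduced to 1000 UMIs, macrophages expressed a median of 6 and 5 ligands in the controls and 4 and 5 in the NP137 libraries. Neutrophils expressed 4 and 3 in the controls and 3 and 4 in the NP137 libraries. Macrophages thus had the more varied set in each library, although their ligand fraction was lower. Cells without any ligand were 0.31% to 1.86% of macrophages, at most 0.13% of neutrophils, and 10.44%, 49.4%, 21.56% and 38.31% of tumour cells in control 1, control 2, NP137 1 and NP137 2.

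Because classes differ in size, the sources of the ligand pool differed between libraries more than the class fractions did. Neutrophils supplied 16.4% and 14.0% of all ligand UMIs in the controls and 20.6% and 39.6% in the NP137 libraries. Macrophages supplied 27.9% and 15.2% in the controls and 8.90% and 16.7% in the NP137 libraries. Tumour cells supplied 29.0% and 15.7% in the controls, 31.3% in NP137 1 and 2.37% in NP137 2. Cells that no gate assigned still held 9.09%, 30.3%, 15.5% and 7.92% of ligand UMIs in control 1, control 2, NP137 1 and NP137 2, and keratinocyte- or fibroblast-gated cells with too few YFP or Cdkn2a UMIs another 11.2%, 6.37%, 6.16% and 6.76%. None of these shares passed the two-sided exact permutation test between treatments, whose smallest possible p with 2 libraries a group is 0.33.

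Each class was then compared with all other gated cells of the same libraries by edgeR's quasi-likelihood test on summed counts, with library as a block and Benjamini-Hochberg adjustment over all genes (threshold 0.05). Between the 10 classes with at least 20 cells in at least 3 libraries, 40 pairs of a ligand and a class were called higher. Macrophages had 15 of 31 tested ligands higher, against 21.5% of all genes tested in that class. Neutrophils had 7 of 32 higher, against 23.8% of all genes, and monocytes 4 of 31, against 14.9%. Fibroblasts had 7 of 32 higher, against 13.6% of all genes, and T cells 3 of 32, against 9.26%. Keratinocytes had 2 of 31 higher, against 11.6%, and gamma delta T cells 1 of 29, against 2.69%. Tumour cells had 1 of 32 higher, which was Cx3cl1, against 5.18% of all genes.

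No ligand was called higher in pericytes (0 of 32, against 10.7% of all genes) or blood endothelial cells (0 of 31, against 16.3%) by edgeR. In pericytes 2 were higher at an unadjusted p under 0.05 (14.9% of all genes) and 1 by DESeq2 (11.8%), and in blood endothelial cells 0 by either measure (20% and 16.6%). Many ligands were instead called lower than in the other cells, 24 of 32 in T cells against 19.9% of all genes and 24 of 31 in blood endothelial cells against 23.2%. In pericytes 21 of 32 were called lower, against 18%, and in tumour cells 18 of 32, against 13%. Scaling by library totals in place of TMM factors moved the median log2 difference of all genes by -0.79 in neutrophils, 0.45 in gamma delta T cells and -0.25 in macrophages. Of the 40 pairs, 30 were called under all of up to 10 other settings tested, and among the rest Ccl17 in macrophages was called under 3 of 10. Under scaling by totals 37 of the 40 pairs were called again, and the 3 not called were Ccl17 in macrophages and Cxcl10 and Ccl9 in neutrophils. Only Cxcl10 in neutrophils changed sign, to -0.085, and it was above the other cells in 1 of 4 libraries, so its direction rests on the scaling.

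**Figure D2:**
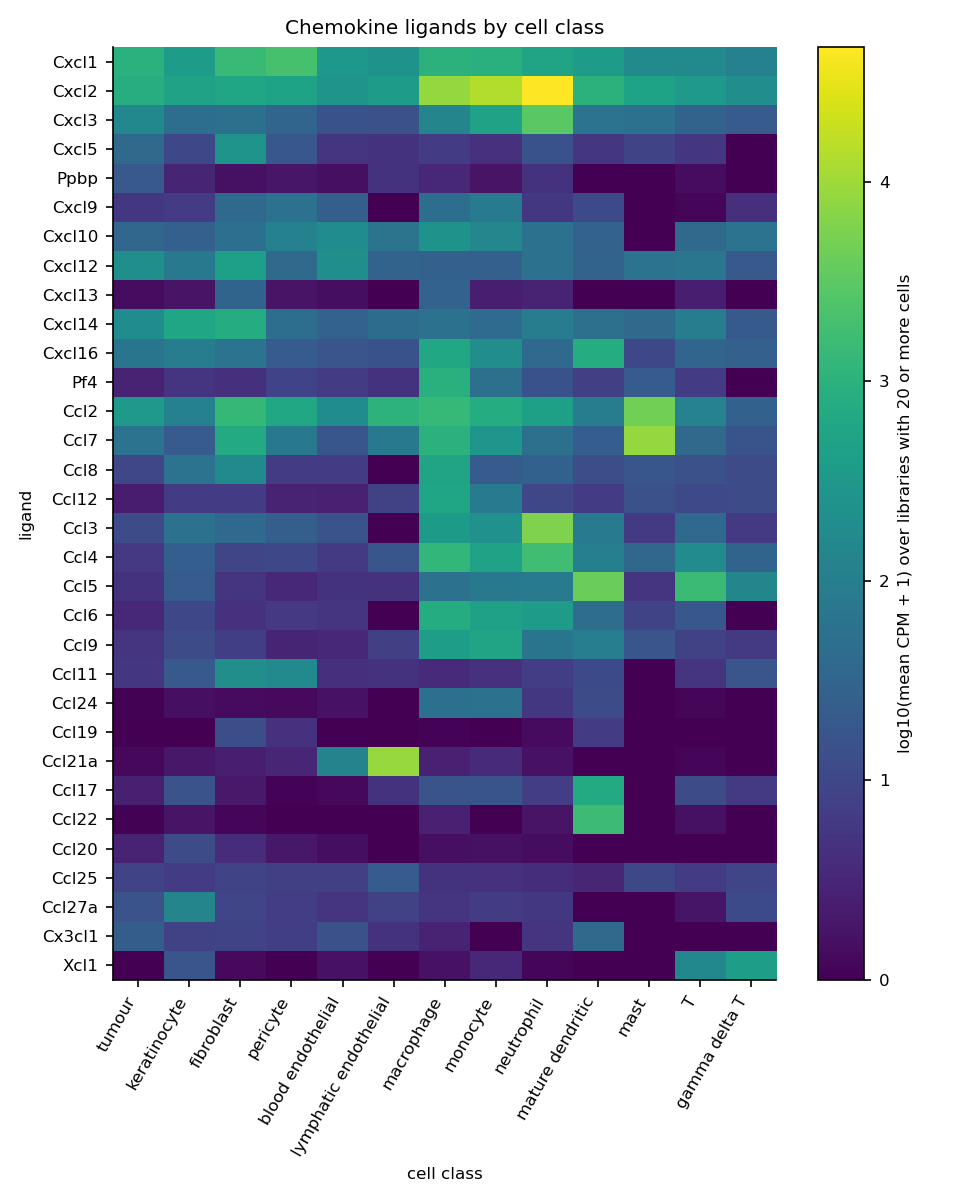
Mean level of each ligand by cell class, as log10 of CPM plus 1, averaged over libraries with at least 20 cells of the class. Cxcl2 and Ccl3 are brightest in neutrophils, Pf4 and Ccl12 stand out in macrophages, and Ccl21a in lymphatic endothelial cells.

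The Cxcr2 ligands were the most abundant group. Cxcl2 was the largest member, with 1098455 of the UMIs counted over the 4 libraries, and its level in neutrophils was 45772 and 52409.8 CPM in the controls and 34549 and 56560.1 CPM with NP137. The other gated cells of the same libraries held 2346 and 772 CPM in the controls and 1851 and 1685 CPM with NP137, so every library showed the difference, a log2 fold of 5.69 (SE 0.40, edgeR adjusted p = 1.8e-14). Macrophages held 8996 and 8218 CPM in the controls and 10214 and 7308 CPM with NP137, also above the other cells (log2 fold 1.97), with overlapping treatment groups in both classes. Monocytes held more Cxcl2 than macrophages in each library, at 16841 and 15194 CPM in the controls and 12607 and 9335 CPM with NP137. It was not among the ligands called higher in monocytes. Cxcl3 was concentrated in neutrophils, with 2334 and 2512 CPM in the controls and 1380.2 and 5880.3 CPM with NP137 and a log2 fold of 5.95 (SE 0.95, edgeR adjusted p = 0.00895). NP137 2 was the highest and NP137 1 the lowest of the 4 libraries for Cxcl3 in neutrophils. Without control 1 the Cxcl3 contrast was no longer called (edgeR adjusted p = 0.0997).

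Cxcl1, the neighbour of Cxcl2 on chromosome 5, was not highest in neutrophils. Its mean over libraries was highest in pericytes, with 1569 and 2815 CPM in the controls and 1994 and 1825 CPM with NP137, a log2 fold of 1.05 against the other cells (SE 0.58, edgeR adjusted p = 0.281). Fibroblasts held 1254 and 1163 CPM in the controls and 1441 and 2079.9 CPM with NP137 (log2 fold 0.88, SE 0.27, edgeR adjusted p = 0.0518), above pericytes in NP137 2. Neither class was called. Cxcl5, a further neutrophil-drawing ligand of the same cluster, was higher in fibroblasts, at 171 and 113 CPM in the controls and 273 and 499 CPM with NP137 (log2 fold 3.14, SE 0.47, edgeR adjusted p = 0.00479). Both NP137 libraries lay above both controls for Cxcl5 in fibroblasts, a difference that was not called. Ppbp, the platelet member of the cluster, reached only 3.33, 0.26, 14.8 and 57.2 CPM in tumour cells of control 1, control 2, NP137 1 and NP137 2.

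Ccl3, a Ccr1 ligand, marked neutrophils. Ccl3 in neutrophils was at 5389 and 8081 CPM in the controls and 2204 and 7996 CPM with NP137 (log2 fold 7.57 over the other cells, SE 0.36, edgeR adjusted p = 7.2e-20). The libraries of each treatment overlapped, with NP137 1 the lowest. Ccl4, which neighbours Ccl3 on chromosome 11, was shared more evenly. It in neutrophils was at 1504 and 2419 CPM in the controls and 684 and 2307 CPM with NP137, and in macrophages at 1442 and 1417 CPM in the controls and 1266 and 827 CPM with NP137, and was called higher in both (log2 folds 4.52 and 4.42). Ccl4 was higher in neutrophils than in macrophages in 3 of 4 libraries, the exception being NP137 1.

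Ccl6 and Ccl9, mouse ligands of Ccr1, were myeloid. Ccl6 in macrophages stood at 645 and 336 CPM in the controls and 210.2 and 1891 CPM with NP137 (log2 fold 5.10), and in neutrophils at 265 and 116 CPM in the controls and 193 and 891 CPM with NP137 (log2 fold 3.08). NP137 2 was the highest library for Ccl6 in both classes. Ccl9 was highest in monocytes at 676 and 419.9 CPM in the controls and 363 and 655 CPM with NP137 (log2 fold 3.90) and in macrophages stood at 531 and 390.3 CPM in the controls and 137 and 604 CPM with NP137 (log2 fold 5.19), with overlapping groups in each.

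Ccl5, a ligand stored by cytotoxic lymphocytes, was called higher in T cells, at 1319 CPM in control 1, 359 CPM in NP137 1 and 2964 CPM in NP137 2 (log2 fold 6.17, SE 0.34, edgeR adjusted p = 5.9e-71). Control 2 held only 14 T cells and was left out of that test. Mature dendritic cells had 5164 and 2436 CPM in the controls and 2493 and 3117 CPM in the NP137 libraries. Those values come from 20, 5, 18 and 55 cells and had no test.

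The monocyte-drawing ligands Ccl2 and Ccl7, neighbours on chromosome 11, were spread over myeloid, mast and stromal cells. Mast cells had the highest level of both: Ccl7 was at 7770.0 CPM in control 1 and 9399 CPM in NP137 2, and Ccl2 at 2479 and 6967 CPM in the same libraries. Only those libraries held at least 20 mast cells (64 and 60), so there was no test. Ccl2 in fibroblasts was at 1458 and 1461 CPM in the controls and 877 and 1499 CPM with NP137 (log2 fold 1.83, SE 0.33, edgeR adjusted p = 0.00862), and in macrophages at 1559 and 1871 CPM in the controls and 492 and 1445 CPM with NP137 (log2 fold 1.57, SE 0.38, edgeR adjusted p = 0.0106). Ccl7 in macrophages was at 1346 and 1163 CPM in the controls and 292 and 1297 CPM with NP137, and in fibroblasts at 777 and 583 CPM in the controls and 423 and 1096 CPM with NP137 (log2 folds 2.81 and 2.39). NP137 1 was the lowest library for both genes in both classes. Without control 2 (edgeR adjusted p = 0.0570) or NP137 2 (0.0503), Ccl7 was no longer called in fibroblasts.

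Ccl12 and Ccl8, from the same cluster, were both called higher in macrophages. Ccl12, which acts on Ccr2, in macrophages was at 757 and 767 CPM in the controls and 287 and 513 CPM with NP137 (log2 fold 7.74, SE 0.64). Ccl8, which in mice acts on Ccr8, in macrophages was at 277 and 132 CPM in the controls and 647 and 1072 CPM with NP137 (log2 fold 3.60, SE 0.22). Both NP137 libraries lay below both controls for Ccl12 and above both controls for Ccl8. Neither difference was called by edgeR, and Ccl8 was called by DESeq2. Fibroblasts also carried Ccl8, at 249 and 95.2 CPM in the controls and 194 and 152 CPM with NP137. Macrophages held on average 32.7% of Ccl8 UMIs in the controls and 45.9% with NP137. Fibroblasts held 33.97% and 26.36% in NP137 1 and NP137 2, and keratinocytes 32.04% in control 2.

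Pf4, best known from platelets, was the ligand with the largest contrast in macrophages. It in macrophages was at 994 and 1090.3 CPM in the controls and 739 and 939.7 CPM with NP137, and in the other cells at 4.87 and 0.904 CPM in the controls and 1.67 and 10.1 CPM with NP137 (log2 fold 8.46, SE 0.69, edgeR adjusted p = 6.0e-05). Its level in macrophages varied less between libraries than that of Ccl8 or Ccl6, with a standard deviation of 148 CPM around a mean of 941 CPM (n = 4).

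The interferon-induced Cxcr3 ligands were lower and more uneven. Cxcl10 in macrophages was at 178 and 456 CPM in the controls and 176 and 146 CPM with NP137 (log2 fold 2.44, SE 0.26, edgeR adjusted p = 1.4e-04), with control 2 the highest. Blood endothelial cells had 35.4 and 569.9 CPM in the controls and 46.0 and 109.7 CPM with NP137, where control 2 again stood apart. Cxcl9 in monocytes was at 9.13 and 31.4 CPM in the controls and 5.12 and 278 CPM with NP137, so its mean rested on NP137 2. It was called higher in macrophages (log2 fold 1.39, edgeR adjusted p = 0.00732) and in monocytes (log2 fold 1.64, edgeR adjusted p = 9.1e-04). The call in monocytes ended without NP137 2 (log2 fold 0.87, edgeR adjusted p = 0.216).

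Cxcl16, a membrane-bound ligand of Cxcr6, in macrophages was at 623 and 627 CPM in the controls and 831 and 466 CPM with NP137 (log2 fold 3.69, SE 0.29). Mature dendritic cells had a similar amount, 770.0, 879, 921 and 818 CPM in control 1, control 2, NP137 1 and NP137 2, from the few cells given above. Both classes exceeded tumour cells, at 34.4 and 22.2 CPM in the controls and 97.7 and 101 CPM with NP137, in every library.

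Stromal and epithelial cells carried the ligands associated with resting tissue. Cxcl12 had its highest mean over libraries in fibroblasts, at 548 and 292 CPM in the controls and 234 and 698 CPM with NP137, but tumour cells were higher in control 1 (649 CPM) and blood endothelial cells in control 2 (462 CPM). The contrast of fibroblasts with the other cells was not called (log2 fold 2.43, SE 0.92, edgeR adjusted p = 0.0954). Cxcl14, an epithelial and stromal ligand, in fibroblasts was at 1236 and 329 CPM in the controls and 717 and 897 CPM with NP137 (log2 fold 2.25, SE 0.61, edgeR adjusted p = 0.0363), and in keratinocytes at 817 and 459.9 CPM in the controls and 789 and 296 CPM with NP137 (log2 fold 1.42, SE 0.60, edgeR adjusted p = 0.151). Ccl11, an eosinophil-drawing Ccr3 ligand, in fibroblasts was at 255 and 204 CPM in the controls and 73.4 and 288 CPM with NP137 (log2 fold 4.22, SE 0.43). Treatment groups overlapped for all 3 ligands. Cxcl14 in fibroblasts was no longer called without control 1, control 2 or NP137 1 (edgeR adjusted p = 0.0966, 0.0541 and 0.0799).

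Ccl27a, the Ccr10 ligand of the epidermis, in keratinocytes was at 111 and 263 CPM in the controls and 138 and 27.2 CPM with NP137 (log2 fold 3.70, SE 0.34, edgeR adjusted p = 4.1e-04). NP137 2, with 80 such cells, was the lowest. Ccl27a has near-identical copies in the mouse genome, so its level depends on how the authors' counting placed shared reads. The same holds for Ccl21a, a Ccr7 ligand that was at 9197 and 12306 CPM in lymphatic endothelial cells of the controls and 9085 and 4189 CPM in those of the NP137 libraries, from 31, 9, 28 and 13 cells. For Ccl19, the other Ccr7 ligand, fibroblasts were called higher (log2 fold 5.85), at no more than 25.3 CPM.

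Some ligands were measured mainly in small classes. Ccl22, a Ccr4 ligand, was at 2174, 833, 1382 and 1033 CPM in mature dendritic cells of control 1, control 2, NP137 1 and NP137 2. Ccl17, its partner ligand, was at 1257, 170, 1111 and 174 CPM in the same cells. For both genes control 1 lay above control 2 and NP137 1 above NP137 2, and the groups overlapped. Xcl1, which draws cross-presenting dendritic cells, in gamma delta T cells was at 171 and 679 CPM in the controls and 555 and 15.8 CPM with NP137 (log2 fold 7.28, SE 0.70, from 19 to 25 cells a library, with control 1 left out of the test). The Ccr3 ligand Ccl24 in monocytes was at 13.7 and 7.24 CPM in the controls and 25.6 and 180.1 CPM with NP137, and NP137 2 was again the highest. It was called higher in macrophages (log2 fold 5.93, edgeR adjusted p = 0.00124), at 117 and 5.00 CPM in the controls and 29.4 and 51.8 CPM with NP137. Macrophages held 92.95% and 5.84% of Ccl24 UMIs in the controls and 76.92% and 48.35% with NP137. Cx3cl1, the membrane-anchored ligand of Cx3cr1, was the only ligand called higher in tumour cells, at 26.1, 26.5, 32.8 and 4.79 CPM (log2 fold 1.94, SE 0.36, edgeR adjusted p = 0.0246). Its call ended without control 1 (edgeR adjusted p = 0.0829) or control 2 (0.0560).

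The remaining members had a mean under 50 CPM in every class, over libraries with at least 20 of its cells. Among them Cxcl13, which draws B cells, was at 11.5 and 0.666 CPM in control fibroblasts and 15.7 and 97.9 CPM in those of NP137 1 and NP137 2, so a single library passed that level. No UMI was counted for 9 of the 46 rows, of which 7 are extra copies of Ccl19, Ccl21a, Ccl21b, Ccl21c and Ccl27 not in the GENCODE M21 gene set. Cxcl17 had 1 UMI, Ccl27b 9, Ccl28 11 and Cxcl15 35 over the 4 libraries together.

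**Figure D3:**
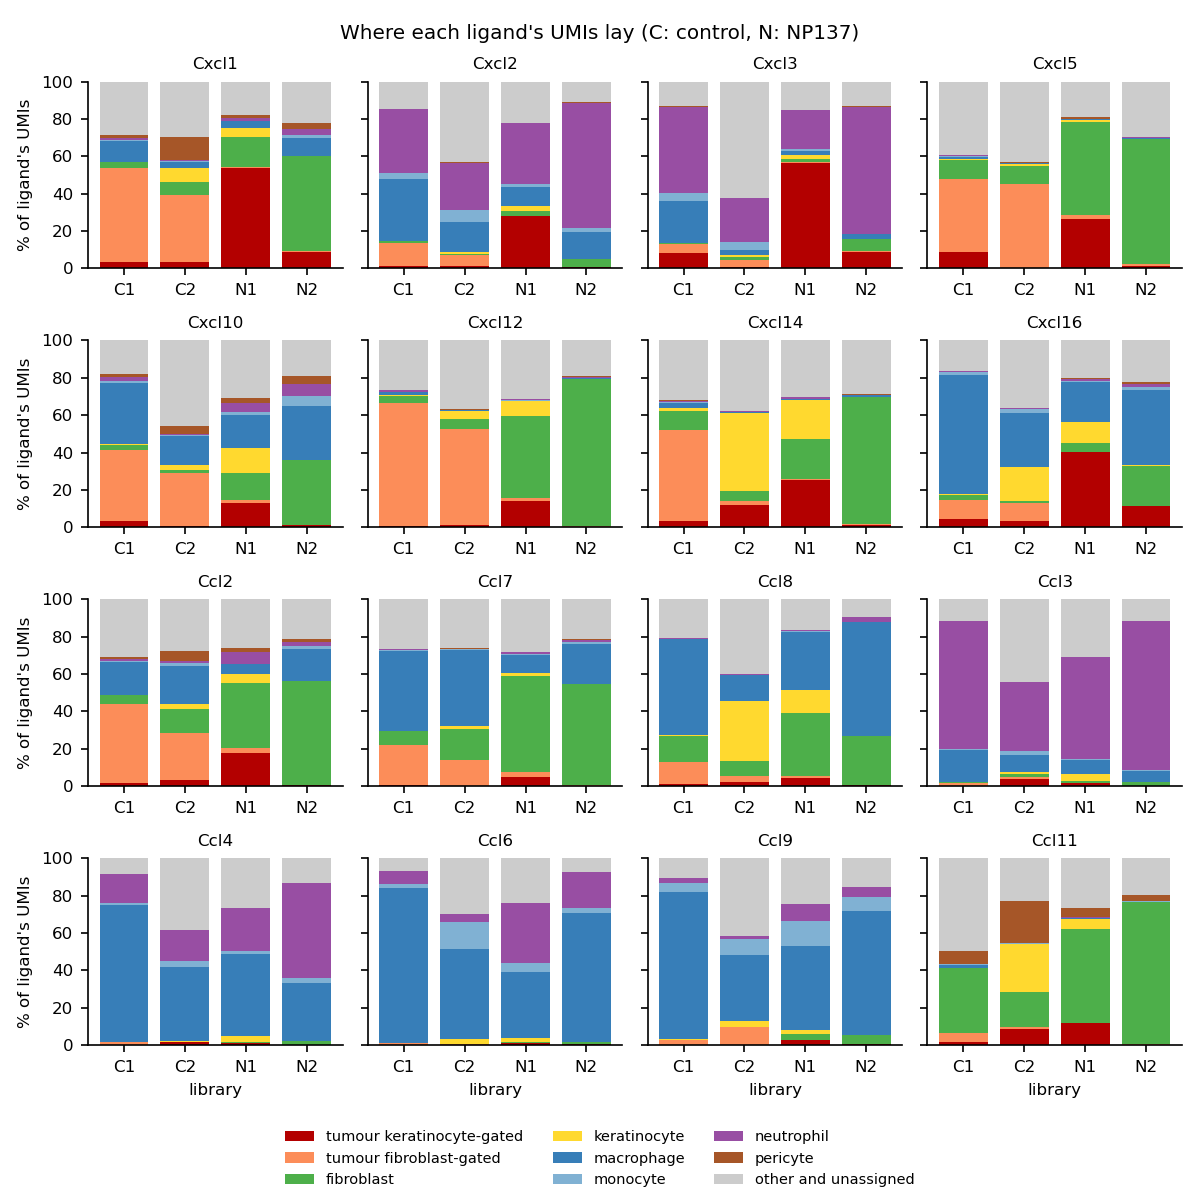
Percentage of each ligand's UMIs that came from each cell class, as stacked bars for control 1 (C1), control 2 (C2), NP137 1 (N1) and NP137 2 (N2). The bars of one ligand differ between libraries because classes differ in size, for example the tumour part of Cxcl12, 66.3% in C1 and 0.57% in N2.

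Detection in single cells was compared after reducing each cell to 2000 UMIs. T cells served as a comparison class for the myeloid and stromal ligands, although it is not known that they lack each of them. For this, 27 T cells of control 1 and 266 of NP137 2 were deep enough, in classes with median depths of 1919 and 2020 UMIs. Cxcl2 was detected in 99.6% and 98.99% of control neutrophils and in 100% and 99.79% of NP137 neutrophils, against 44.44% (exact 95% interval 25.48 to 64.67) and 31.2% (25.68 to 37.15) of T cells in control 1 and NP137 2. The neutrophils compared were the deepest ones, 249, 99, 100 and 950 cells, with 718, 9, 1531 and 3031 left out, and unthinned shares were 99.69% and 100% in the controls and 99.2% and 99.1% with NP137. Ccl3 was detected in 79.52% and 72.73% of control neutrophils and 76% and 84.95% of NP137 neutrophils, against 0% of T cells in control 1, which allows up to 11.11%, and 11.28% in NP137 2. In control 1 and NP137 2 both ligands were thus above the T-cell level, and Cxcl2 transcripts were widespread in cells outside its main source. Whether the Ccl3 found in T cells was their own transcript was not tested.

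In tumour cells the levels came from few cells for some ligands. The 10% of tumour cells with the most Cxcl10 held 97.5% and 97.1% of its UMIs in the controls. Only 11.66% and 15.22% of those cells had any Cxcl10 UMI, so the top 10% had to hold most of them. Cxcl12 was detected in 88.77% and 69.08% of the same cells. For Cxcl12 the top 10% held 32.3% and 50.4% in the controls, and for Cxcl16 between 39.6% and 61.4% in the 4 libraries. The share of thinned tumour cells with Cxcl10 was 4.26% and 4.72% in the controls and 1.61% and 0.13% with NP137, against 7.41% (exact 95% interval 0.91 to 24.29) and 6.02% (3.48 to 9.58) of T cells in control 1 and NP137 2. The unthinned shares of tumour cells with Cxcl10 were 11.66% and 15.22% in the controls and 5.04% and 4.21% with NP137, against 5.36% and 6.32% of the shallower T cells of control 1 and NP137 2. The thinned share in NP137 2 tumour cells lay below the T-cell interval of that library, so T cells do not serve as a background for Cxcl10.

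The comparison of NP137 with control asked whether blocking netrin-1 went with other ligand levels within a class. In tumour cells, with 27 ligands tested, 2 passed the threshold by edgeR, Cxcl10 (lower) and Cxcl16 (higher), against 3.13% of all genes tested. DESeq2 called 6 of the 27, against 17.5% of all genes. The median log2 fold change of the tested ligands was -0.14, beside -0.03 for all genes. In 10 of the 27 the 2 treatment groups did not overlap, against 59.3% of all genes.

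Cxcl10 in tumour cells was at 53.2 and 66.3 CPM in the controls and 8.91 and 4.73 CPM with NP137. Both NP137 libraries lay below both controls, a log2 fold change of -2.88 (SE 0.37, edgeR adjusted p = 0.0367). Cxcl16 was at 34.4 and 22.2 CPM in the controls and 97.7 and 101 CPM with NP137, with both NP137 libraries above both controls (log2 fold change 2.06, SE 0.33, edgeR adjusted p = 0.0474). Thinned to equal depth, the share of tumour cells with Cxcl16 was 7.17% and 5.81% in the controls and 16.67% and 16.24% with NP137, against 3.70% of T cells in control 1 and 0.75% in NP137 2. The call for Cxcl10 was lost without NP137 2 (adjusted p = 0.0530), and that for Cxcl16 without control 2 (0.0690), NP137 1 (0.0544) or NP137 2 (0.0876). With no doublets removed neither passed by edgeR (adjusted p = 0.0763 for Cxcl10 and 0.0525 for Cxcl16), and neither did with classes taken from clusters (0.0660 and 0.0800).

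The other ligands among the 6 with the smallest p had wider errors. Cxcl12 in tumour cells was at 649 and 182 CPM in the controls and 18.9 and 11.7 CPM with NP137, with no overlap between the groups (log2 fold change -4.54, SE 0.76, edgeR adjusted p = 0.0526). Cxcl3 was at 30.9 and 9.30 CPM in the controls and 226 and 344 CPM with NP137, again without overlap (log2 fold change 4.06, SE 0.72, edgeR adjusted p = 0.0556). Under scaling by library totals, which moved the median of all genes by -0.26, both of these passed and 4 ligands were called. Ppbp was at 3.33 and 0.262 CPM in the controls and 14.8 and 57.2 CPM with NP137 (log2 fold change 4.53, SE 1.34, edgeR adjusted p = 0.124). Ccl2 was at 925 and 208 CPM in the controls and 115 and 53.8 CPM with NP137 (log2 fold change -2.54, SE 0.82, edgeR adjusted p = 0.145). In both, the lowest library of one group lay above the highest of the other.

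**Figure D4:**
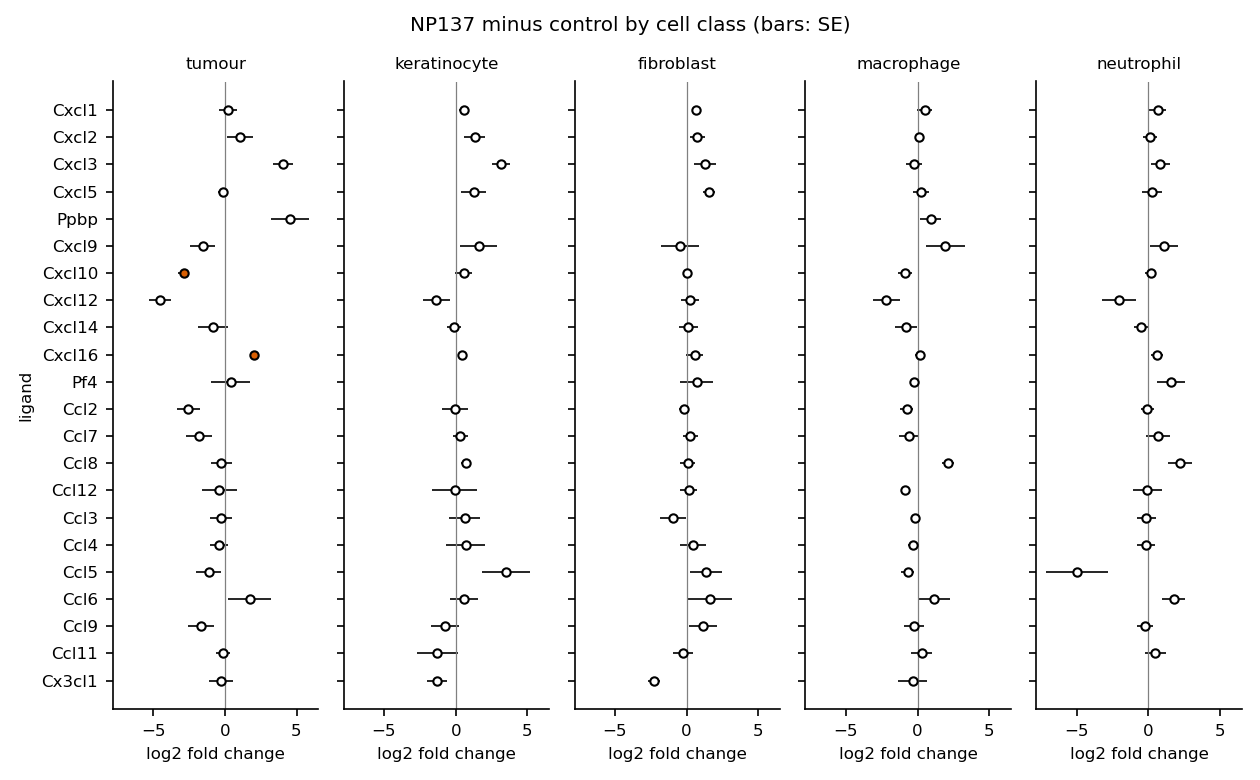
Log2 fold change of NP137 over control for the main ligands in 5 classes (horizontal axis), with bars of 1 standard error from edgeR. Filled points passed an adjusted p of 0.05, which only Cxcl10 and Cxcl16 in tumour cells did.

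Several of these ligands also differed between the gates of tumour cells within a library. Fibroblast-gated and keratinocyte-gated tumour cells of control 1, control 2 and NP137 1 were compared with library as a block; NP137 2 had 14 fibroblast-gated tumour cells and was left out. Of 25 ligands tested, 4 were called, against 15.3% of all genes: 1 was higher in fibroblast-gated cells, against 7.74%, and 3 in keratinocyte-gated cells, against 7.59%. Cxcl12 was the one higher in fibroblast-gated cells, at 742, 196 and 247 CPM against 47.8, 42.2 and 16.8 CPM in keratinocyte-gated cells (log2 fold 3.19, SE 0.43, edgeR adjusted p = 0.00221). Cxcl16 was lower in fibroblast-gated cells, at 28.4, 18.2 and 15.7 CPM against 72.6, 60.7 and 98.5 CPM (log2 fold -1.90, SE 0.30, edgeR adjusted p = 0.00137). Cxcl3 (log2 fold -2.75, SE 0.53, edgeR adjusted p = 0.0179) and Ppbp (log2 fold -5.68, SE 0.81, edgeR adjusted p = 7.6e-04) were also lower there. Cxcl10 was not called between gates (log2 fold 1.79, edgeR adjusted p = 0.056). Without NP137 1, Cxcl12 (edgeR adjusted p = 0.0691) and Cxcl3 (0.134) were no longer called.

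**Figure D5:**
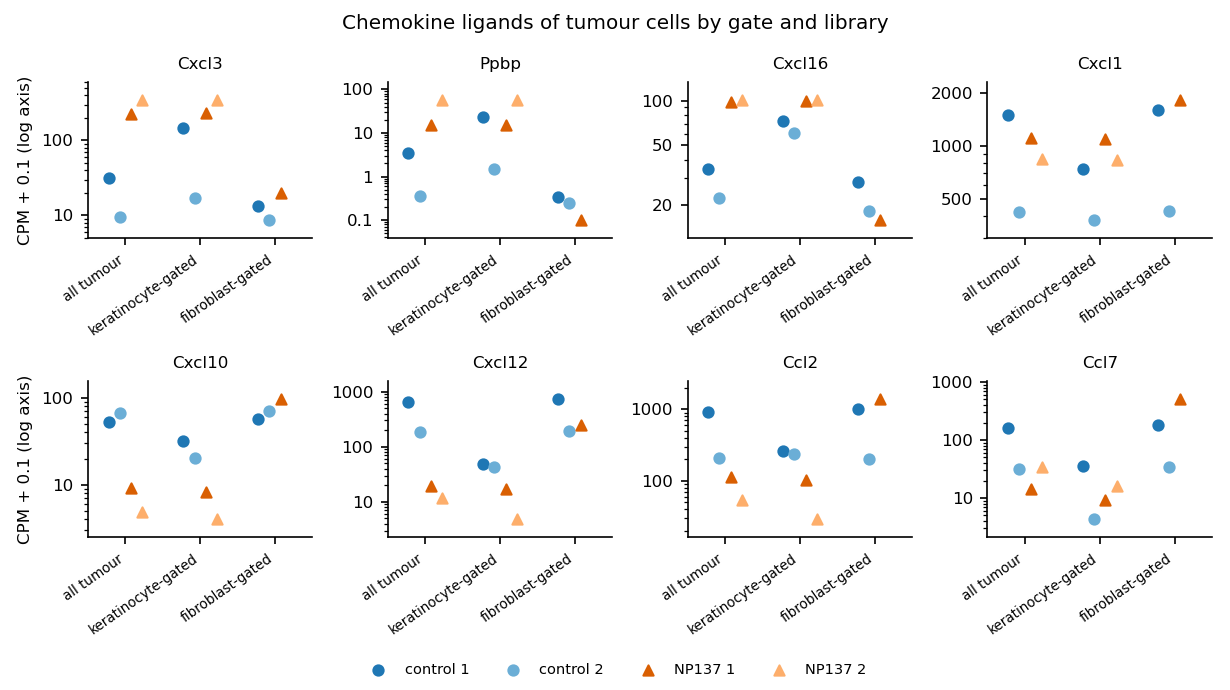
Level of 8 ligands in all tumour cells and in keratinocyte-gated and fibroblast-gated tumour cells, in CPM plus 0.1 on a log axis, with 1 point per library. Cxcl12 is higher in the fibroblast-gated cells of each library, and Cxcl16 and Cxcl3 are higher in the keratinocyte-gated cells.

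The few fibroblast-gated tumour cells of the NP137 libraries can be set beside those of the controls. Cxcl12 in fibroblast-gated tumour cells was at 742 and 196 CPM in the controls, 247 CPM in the 45 cells of NP137 1 and 351 CPM in the 14 cells of NP137 2. Cxcl10 was at 56.5 and 71.1 CPM in the controls and 97.9 and 47.1 CPM with NP137, and Ccl2 at 1028 and 205 CPM in the controls and 1406 and 1274 CPM with NP137. The NP137 values for these cells rest on 25 and 15 UMIs of Cxcl10 and had no test. Those UMIs lay in 2.22% of the 45 cells and 7.14% of the 14 cells, against 12.3% and 17.11% of control cells, all unthinned. So few cells with Cxcl10 give no level for this gate with NP137. For Cxcl12 and, with that limit, Cxcl10 the NP137 values overlapped the controls, and for Ccl2 both NP137 values were above both controls. The NP137 cells were 1.79% and 0.36% of all fibroblast-gated cells of their libraries. There 0.41% and 0.3% of pericytes met the same rule. Fibroblasts without the label held Ccl2 at 877 and 1499 CPM in NP137 1 and NP137 2. How many of the NP137 cells compared here were tumour cells was not tested.

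Treatments were also compared within keratinocyte-gated tumour cells alone. In these cells 0 of 26 ligands were called by edgeR, as were 0% of all genes, the unadjusted p was under 0.05 for 6, against 6.73% of all genes, and 1 (Ccl11) was called by DESeq2, against 0.371%. Cxcl12 was at 47.8 and 42.2 CPM in the controls and 16.8 and 4.70 CPM in the NP137 libraries (log2 fold change -1.93). Cxcl16 was at 72.6 and 60.7 CPM in the controls and 98.5 and 101 CPM with NP137 (log2 fold change 0.74). Cxcl10 was at 31.6 and 20.4 CPM in the controls and 8.07 and 3.86 CPM with NP137 (log2 fold change -1.97, edgeR adjusted p = 0.694). Cxcl3 was at 144 and 16.7 CPM in the controls and 228 and 350 CPM with NP137 (log2 fold change 2.07, SE 0.91, edgeR adjusted p = 0.694). Ccl2 was at 261 and 236 CPM in the controls and 103 and 28.8 CPM with NP137 (log2 fold change -1.80, SE 0.58). The groups did not overlap for these 5 genes. They and Ppbp were picked by smallest p in the whole tumour class, which includes these cells. In that class 59.3% of all genes did not overlap, and the share among keratinocyte-gated cells was not computed. Ppbp was at 23.1 and 1.39 CPM in the controls and 14.97 and 58.3 CPM with NP137, with overlapping groups (log2 fold change 1.74, SE 1.13). Whether the treatment changed levels within a kind of tumour cell or only the mix of the 2 gates cannot be told apart for most of this class, since fibroblast-gated cells were nearly all from the controls.

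In the 6 other classes with at least 50 cells in every library, no ligand was called by edgeR, and no gene was in any of them. In macrophages the unadjusted p was under 0.05 for 3 of 27 ligands, against 4.4% of all genes. Ccl8 was the only ligand DESeq2 called there, against 0.0662% of all genes, with a log2 fold change of 2.14 (SE 0.43, edgeR adjusted p = 0.958, DESeq2 adjusted p = 0.00254). The next smallest p-values were those of Cxcl13 (log2 fold change 1.26, SE 0.30), Ccl12 (-0.85, SE 0.30), Cxcl12 (-2.17, SE 0.97), Cxcl10 (-0.88, SE 0.46) and Ccl2 (-0.76, SE 0.48). The 10% of macrophages with the most Ccl8 held 95% of its UMIs in control 1 and 79.7% in NP137 2. At 2000 UMIs per cell, Ccl8 was detected in a mean of 9.065% of control macrophages and 20.315% with NP137. The top 10% shares thus depend partly on how many cells had any Ccl8.

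In neutrophils the unadjusted p was under 0.05 for 1 of 21 ligands, against 3.7% of all genes, and 0 were called by DESeq2, against 0.0596%. It was Ccl8, at 13.4 and 9.07 CPM in the controls and 13.8 and 75.0 CPM with NP137 (log2 fold change 2.21, SE 0.86). Cxcl2, Ccl3 and Cxcl3, the leading neutrophil ligands, were not among the 6 with the smallest p, which after Ccl8 were Ccl6 (log2 fold change 1.76, SE 0.79), Ccl5 (-4.99, SE 2.17), Cxcl12 (-2.05, SE 1.18), Pf4 (1.56, SE 0.95) and Cxcl16 (0.61, SE 0.42). Ccl5 in neutrophils rested on control 2, which had 331 CPM against 6.68 CPM in control 1.

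In fibroblasts the unadjusted p was under 0.05 for 3 of 26 ligands, against 7.23% of all genes, and 0 were called by DESeq2, against 0.345%. These were Cx3cl1, at 17.0 and 9.99 CPM in the controls and 2.91 and 2.47 CPM with NP137 (log2 fold change -2.27, SE 0.43), Cxcl5 (1.53, SE 0.42) and Ccl19 (-1.96, SE 0.71). Cxcl1 (0.64, SE 0.27), Cxcl13 (3.16, SE 1.30) and Ccl27a (-0.63, SE 0.32) followed, and the edgeR adjusted p was 0.657 for each of the 6. The treatment groups did not overlap for 7 of the 26 ligands tested, against 42% of all genes.

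In keratinocytes the unadjusted p was under 0.05 for 4 of 26 ligands, against 5.82% of all genes. The smallest p was that of Ccl1 (log2 fold change 4.01, SE 0.90), counted with 0 and 5 UMIs in the controls and 51 and 3 UMIs with NP137. Cxcl3 in keratinocytes was at 20.9 and 6.16 CPM in the controls and 50.6 and 118 CPM with NP137 (log2 fold change 3.16, SE 0.65, edgeR adjusted p = 0.537) and was the only ligand DESeq2 called, against 0.0965% of all genes. Ccl20 (log2 fold change 1.77, SE 0.65), Ccl17 (2.18, SE 0.81), Ccl8 (0.71, SE 0.37) and Cx3cl1 (-1.29, SE 0.69) had the next smallest p-values.

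In blood endothelial cells the unadjusted p was under 0.05 for 5 of 13 ligands, against 8.58% of all genes, and 0 were called by DESeq2, against 0.0223%. They were Cxcl3 (log2 fold change 2.40, SE 0.44), Cxcl12 (-1.53, SE 0.52), Cxcl2 (1.26, SE 0.47), Ccl3 (1.59, SE 0.65) and Cx3cl1 (-1.21, SE 0.51), each with an edgeR adjusted p from 0.570 to 0.576. Cxcl12 in these cells was at 186 and 462 CPM in the controls and 137 and 81.0 CPM with NP137, so both NP137 libraries were below both controls. Cxcl10 was the next (-1.91, SE 1.47). In pericytes the unadjusted p was under 0.05 for 2 of 15, against 4.2% of all genes, and 0 were called by DESeq2, against 0.0357%. They were Cxcl3 (log2 fold change 2.14, SE 0.47) and Cxcl16 (1.04, SE 0.38), followed by Cxcl5 (1.76, SE 0.76), Cxcl2 (0.46, SE 0.22), Cxcl12 (-1.26, SE 0.60) and Ccl11 (-0.97, SE 0.57).

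Summed over all cells, 0 of 34 ligands were called by edgeR, as were 0% of all genes. Cxcl3 over all cells was at 122 and 77.7 CPM in the controls and 200.4 and 540.1 CPM with NP137 (log2 fold change 2.08, SE 0.60, edgeR adjusted p = 0.763), with both NP137 libraries above both controls. Ppbp (2.80, SE 0.97), Cxcl13 (3.74, SE 1.31), Cxcl5 (1.95, SE 0.79), Ccl8 (1.63, SE 0.70) and Cxcl2 (1.01, SE 0.49) followed. The unadjusted p was under 0.05 for 3 of the 34, against 6.49% of all genes, and DESeq2 called 2, Cxcl3 and Cxcl13, against 1.92%. In such sums, more cells of a class and more transcripts per cell cannot be told apart.

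Differences between classes in the NP137 effect were tested as an interaction in edgeR. Between tumour cells and macrophages 1 ligand was called, against 0.911% of all genes. It was Cxcl3, whose log2 fold change with NP137 was higher in tumour cells by 4.33 (SE 0.38, edgeR adjusted p = 0.0143). With classes taken from clusters the difference was 5.64 and did not pass (edgeR adjusted p = 0.229), and DESeq2 called 5 ligands in this comparison (Cxcl3, Cxcl10, Cxcl12, Cxcl16 and Ccl8), against 3.72% of all genes. In macrophages Cxcl3 was at 231 and 69.4 CPM in the controls and 124 and 119 CPM with NP137, so the groups overlapped there. Between tumour cells and fibroblasts 0 ligands were called by edgeR, against 1.65% of all genes, although DESeq2 called 6 (7.4% of all genes) and the unadjusted edgeR p was under 0.05 for 8 (15.6%). Between macrophages and neutrophils edgeR called 0, as it did over all genes. There the unadjusted p was under 0.05 for 4 ligands, against 3.59% of all genes, and DESeq2 called 0, as over all genes.

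Markers of neutrophils moved with Cxcl3 in tumour cells. S100a8 in tumour cells was at 31.0 and 20.4 CPM in the controls and 98.4 and 197 CPM with NP137, and S100a9 at 39.6 and 20.2 CPM in the controls and 135 and 224 CPM with NP137. For both markers, as for Cxcl3, the NP137 libraries lay above the controls and NP137 2 was the highest. All neutrophil markers summed to 126 and 55.2 CPM in the controls and to 348 and 593 CPM with NP137, with 1 called higher. At 2000 UMIs per cell, the share of tumour cells with Cxcl3 was 3.85% and 1.09% in the controls and 22.38% and 17.52% with NP137, against 0% of T cells in control 1, which allows up to 11.11%, and 6.39% in NP137 2. The mix of gates in this class moved as well, with 88.6% and 84.07% fibroblast-gated cells in the controls and 1.54% and 1.79% with NP137. Whether the tumour cells transcribed S100a8 and S100a9 themselves was not tested. The part of neutrophil transcripts in the tumour-cell value was not tested either.

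Receptor transcripts were measured in the same classes. The Cxcr2 transcript was highest in neutrophils, at 244, 451, 285 and 577 CPM in control 1, control 2, NP137 1 and NP137 2. Ccr1, which binds Ccl3, Ccl6 and Ccl9, was also highest in neutrophils, at 986, 1018, 696 and 1381 CPM. Neutrophils thus carried transcripts of ligands and of a receptor for each, Cxcl2 with Cxcr2 and Ccl3 with Ccr1. Ccrl2, an atypical receptor that presents chemerin, was at 3729, 2292, 3718 and 1902 CPM in the same cells.

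The receptors of mononuclear cells and lymphocytes were highest in other classes. Ccr2 was highest in monocytes, at 450, 948, 445 and 871 CPM. Cx3cr1 in macrophages was at 298 and 331 CPM in the controls and 133 and 145 CPM with NP137, so its groups did not overlap. Ccr7 was highest in mature dendritic cells, at 3443, 2544, 3333 and 2459.6 CPM. Cxcr6 had its highest mean in gamma delta T cells, at 192, 385, 185 and 934 CPM, although T cells were higher in NP137 1 (224 CPM). The gamma delta T values rest on 9, 38, 6 and 59 UMIs from 19, 20, 25 and 21 cells. Control 1, with 19 cells, was left out of that mean. Cxcr4, the Cxcl12 receptor, was at 150, 96.2, 82.2 and 91.3 CPM in T cells.

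Genes that lie around the ligands in the pathway were tested in the same fit of tumour cells, in which edgeR called 3.13% of all genes. Of 9 chemokine receptors and 3 atypical receptors tested in tumour cells, 0 were called by edgeR. Of 8 inducing cytokines, 1 was called higher, Tnf, at 6.43 and 2.79 CPM in the controls and 44.0 and 35.6 CPM with NP137 (log2 fold change 3.33, SE 0.51, edgeR adjusted p = 0.0465). Of 20 targets of NF-kB and interferon signalling, 1 was called lower, the interferon-induced GTPase gene Gbp2, at 33.2 and 22.3 CPM in the controls and 2.84 and 2.21 CPM with NP137 (log2 fold change -3.21, SE 0.40, edgeR adjusted p = 0.0361). Of 16 dissociation-response genes, 2 were called lower, Fosb (log2 fold change -1.82) and Egr1 (-1.87). The part of the dissociation response in the ligand levels was not tested.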

How the data were processed

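Values are UMI counts per gene and cell in the deposited filtered matrices; per the file headers they were written by 10x software version 3.0.2, and the submitters' processing notes name Seurat 3.1.5 and mm10. How the authors counted shared reads is not given in the sources used here. Barcodes under 200 detected genes or at 20% mitochondrial UMIs and above were dropped, and the cells with the highest Scrublet doublet scores, 0.8% per 1000 barcodes, were removed. Counts were summed per class and library and tested with edgeR 4.0.16 (quasi-likelihood, TMM, low counts filtered, Benjamini-Hochberg over all genes), with DESeq2 1.42.0 as an alternative, in R 4.3.3; gating and shares used Python 3.11.15 with scanpy 1.11.5. The NP137 comparisons took the classes that reached 50 cells in all 4 libraries. CPM are plain UMIs per 1000000 of a class sum, without TMM factors, and depend on the class depth. The tests were tested on simulated data for 4 comparisons (NP137 in tumour cells, macrophages against other cells, the tumour and macrophage interaction, and the tumour gates): of genes changed by 2 and 4 on the log2 scale, 26.5% and 81% were recovered for NP137 in tumour cells. Shares were compared after thinning to 2000 UMIs a cell. Exact binomial 95% intervals and the limit of 3 counts for a share of 0 cover counting error only.

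The members and gene lists were chosen with earlier results of these data known. Members at or above 50 CPM in a class were given in every library in their highest class, and in each NP137 comparison the 6 members of smallest p were named. The comparison of the tumour gates, the NP137 comparison in keratinocyte-gated tumour cells, the scaling by library totals and a crossed pairing were added after seeing the data. Gate and cluster assignments, made on 2000 variable genes without the ligands, matched for 98.7% of neutrophils, 96.6% of macrophages, 90.6% of fibroblasts, 90.9% of tumour cells and 80.8% of keratinocytes. No cluster took the name of monocytes, gamma delta T, mature dendritic, dendritic, NK or Schwann cells (0% matched), so their values rest on the gate alone. One allele of the mice and one receptor are not reported here.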

Additional observations from a re-analysis of the deposited data

Results flagged for a closer look

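The NP137 effect on Cxcl3 differed between tumour cells and macrophages by 4.33 on the log2 scale (edgeR interaction test, adjusted p = 0.0143). With 200 genes changed in simulated counts, this test also called 36 unchanged genes, so its threshold was not held there. No other ligand passed by edgeR in the 3 pairs of classes tested, whereas DESeq2 called 5 ligands between tumour cells and macrophages and 6 between tumour cells and fibroblasts. With classes taken from clusters the Cxcl3 difference was 5.64 and did not pass (edgeR adjusted p = 0.229). Cxcl3 in tumour cells was at 30.9 and 9.30 CPM in the controls and 226 and 344 CPM with NP137, and in macrophages at 231 and 69.4 CPM in the controls and 124 and 119 CPM with NP137. In keratinocyte-gated tumour cells alone Cxcl3 was at 144 and 16.7 CPM in the controls and 228 and 350 CPM with NP137 (log2 fold change 2.07, edgeR adjusted p = 0.694). In tumour cells the mix of gates and the summed neutrophil markers moved with it, and their part was not tested.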

How the results depend on the processing

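The libraries number 2 per treatment, droplet suspensions hold free RNA, and neutrophils were shallow, so small differences were not detectable. Numbers of ligands called for NP137 against control moved as follows. In tumour cells 2 were called as reported, 6 by DESeq2, 4 with library totals, 0 with no doublets removed, 0 with classes from clusters (0.0071% of all genes) and 0 to 4 when a library was left out (1.14% to 4.1% of all genes), the highest without control 1 or control 2. Without NP137 replicate 2 the call for Cxcl10 ended. By DESeq2 the number was 1 in keratinocytes, 1 in macrophages and 2 in all cells. With no filter on low counts it was 3 in blood endothelial cells, 3 in fibroblasts, 2 in keratinocytes, 2 in macrophages, 2 in neutrophils and 1 in pericytes, against 0.74%, 1.14%, 0.414%, 0.528%, 0.364% and 0.294% of all genes in that order. Leaving out a library gave 0 to 2 in blood endothelial cells (without control 1, 0.579% of all genes), 0 to 3 in keratinocytes (without NP137 1, 2.18%), 0 to 4 in neutrophils (without NP137 1, 1.16%) and 0 to 3 in pericytes (without control 1, 1.05%), each highest without the library named. In keratinocyte-gated tumour cells DESeq2 called 1 and no filter gave 12 (2.17% of all genes). Between tumour gates DESeq2 called 9, no filter gave 14 (16.8% and 14.7% of all genes) and leaving out a library gave 3 to 13, the highest without control 1 (12.1% of all genes). The difference of the NP137 effect between tumour cells and macrophages gave 5 by DESeq2, 8 with no filter (5.23% of all genes), 0 with classes from clusters and 1 to 8 when a library was left out. Between tumour cells and fibroblasts it gave 6 by DESeq2, 1 with DESeq2's size factors, 4 with no filter (3.88% of all genes) and 0 to 6 when a library was left out, and between macrophages and neutrophils 0 to 1. The causes were not tested. Leaving out a library took the log2 fold change of Cxcl10 in blood endothelial cells from -2.81 to 1.22 (without control 2), that of Cxcl12 in neutrophils from -3.08 to 1.28 (without control 1) and that of Pf4 in neutrophils from -0.42 (without NP137 2) to 3.50. The number of ligand and class pairs called higher stayed between 37 and 52 in the alternatives run.

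Libraries of the 2 treatments share replicate numbers, but nothing in the labels ties the 2 pairs, and of the dates in the file names, whose meaning is not given, only those of control 1 and NP137 1 match. With the replicate number as a block, 2 ligands were called in tumour cells (2.7% of all genes), Cxcl10 and Cxcl12, while Cxcl16 did not pass (edgeR adjusted p = 0.0596), and 0 in the other classes; the correlation of same-numbered libraries ranged from -0.22 to 0.21. With crossed numbers in all cells, 0 were called. Of 515 log2 fold changes under alternatives, 466 kept direction and side of the threshold, 37 passed it newly, 9 no longer passed and 3 changed sign.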
